A study of Mus musculus with 5 samples.

Results

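The metabotropic glutamate receptor genes analysed were Grm2, Grm3, Grm4, Grm5, Grm7 and Grm8, taken by exact gene symbol, and they made up 6 of the 55385 genes counted. The study examined gene expression in the hippocampus of male C57/bl6 mice, 3 months old, after seizures evoked by kainic acid, an agonist of kainate-type glutamate receptors. Mice received 20 mg/kg intraperitoneally, were kept in the experiment if they reached the fifth seizure stage, and were killed 1 h, 4 h or 8 h into the period that began with seizure onset. The control received no kainic acid. The paper's account of the RNA sequencing calls these animals control mice and names no vehicle, so injection and drug may not be separated in these libraries. Total RNA gave 1 control library, 1 library at 1 h, 2 at 4 h (called first and second here) and 1 at 8 h. Whether a library came from 1 mouse is not given in the sources used here, and only the 4 h group had a replicate. The control library had 19100374 reads on genes, the 1 h library 17744508, the 4 h pair 18250114 and 19109204, and the 8 h library 16612225.

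Metabotropic glutamate receptors couple glutamate to G proteins rather than to an ion pore. Group I receptors, with Grm5 here, act through Gq, phospholipase C and calcium release and lie mostly at postsynaptic sites. Group II (Grm2, Grm3) and group III (Grm4, Grm7, Grm8) receptors act through Gi/o, lower cyclic AMP and restrain transmitter release at presynaptic terminals. In the hippocampus Grm2 is known from dentate granule cells and their mossy fibres, and Grm3 also from astrocytes.

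The 6 genes lie on 5 chromosomes. In GENCODE release M21 (GRCm38) Grm2 (ENSMUSG00000023192.12) occupies chr9:106643095-106656082 on the minus strand, and Grm3 (ENSMUSG00000003974.6) occupies chr5:9485541-9725170 on the minus strand. Grm5 (ENSMUSG00000049583.15) lies at chr7:87584168-88134907 on the plus strand and Grm4 (ENSMUSG00000063239.17) at chr17:27422387-27521403 on the minus strand. Grm7 (ENSMUSG00000056755.13) is at chr6:110645581-111567230 on the plus strand and Grm8 (ENSMUSG00000024211.15) at chr6:27275119-28135178 on the minus strand. Of the exon length of Grm2, 9.60% is overlapped by Gm28111 on the opposite strand, which had 0 counts in all 5 libraries. Of that of Grm7, 2.21% is overlapped by Gm20387 on the opposite strand, which had between 23 and 61 counts.

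For Grm2 and Grm3, the group II pair whose counts are compared with each other in the text, the 250 bases upstream of their RefSeq starts are shown (RefSeq, GRCm38.p6, both on the minus strand, chr9:106656110-106656359 for Grm2 and chr5:9725353-9725602 for Grm3). Capitals mark GC boxes (GGGCGG, searched on both strands).
Grm2: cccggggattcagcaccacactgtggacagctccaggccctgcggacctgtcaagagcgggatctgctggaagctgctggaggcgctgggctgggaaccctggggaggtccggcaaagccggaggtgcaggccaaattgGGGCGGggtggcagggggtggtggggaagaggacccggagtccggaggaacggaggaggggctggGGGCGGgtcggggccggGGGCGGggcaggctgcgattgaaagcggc
Grm3: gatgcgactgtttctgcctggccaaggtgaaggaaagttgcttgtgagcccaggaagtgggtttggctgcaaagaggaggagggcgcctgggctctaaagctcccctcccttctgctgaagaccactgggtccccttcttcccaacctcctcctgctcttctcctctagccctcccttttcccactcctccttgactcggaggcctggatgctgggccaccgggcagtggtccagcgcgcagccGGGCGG

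The Grm2 window held 3 GC boxes with 71.2% G and C, and the Grm3 window held 1 with 62.4%. A GC box was present in 32.7% of the 32851 promoter windows of this length. Neither window held the cyclic AMP response element TGACGTCA, the AP-1 site TGACTCA or the EGR site GCGTGGGCG, which were found in 1.55%, 4.46% and 0.536% of the windows. The EGR site and the GC box share the letters GGGCG. The table also held 2 windows for Grm7 and 3 for Grm8, again with 0 matches to these 3 motifs.

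Levels are given as CPM after TMM normalization (normalized CPM), that is, counts scaled to a common library size, and intervals are exact Poisson 95% intervals of the count, which cover counting error only. Grm2 was the receptor gene with the widest span on the log2 scale. Its counts were 692 for the control library, 553 for 1 h, 230 and 199 for the first and second 4 h library, and 1037 for 8 h. As normalized CPM the control stood at 34.8 (32.2 to 37.5), the 1 h library at 31.5 (28.9 to 34.2), the 4 h pair at 13.7 (12.0 to 15.5) and 10.5 (9.11 to 12.1) and the 8 h library at 59.2 (55.6 to 62.9). Both 4 h libraries lay below the 3 others, and the 8 h library lay above them all. Relative to the control, Grm2 stood at 39.3% and 30.3% in the 4 h libraries and at 170.1% at 8 h (154.4% to 187.6%, exact binomial interval). The 4 h mean was 12.1 ± 2.22 (SD, n = 2), and the pair differed by 0.38 on the log2 scale against a span of 2.49 over all libraries. Other genes differed more between the 4 h libraries, and 2322 of the 19768 genes tested were at least 2-fold apart.

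The fitted log2 fold change of Grm2 was -1.52 ± 0.24 (SE) at 4 h against control (adjusted p = 0.245, from the quasi-likelihood test of edgeR after Benjamini-Hochberg correction), and it ranked 82 of 19768 genes by p. For 8 h against 4 h it was 2.28 ± 0.24, with rank 6 and an adjusted p of 0.366 in the same edgeR test. At 8 h against control it was 0.76 ± 0.29 with an adjusted p of 1.00, and at 1 h it was -0.14 ± 0.29 with an adjusted p of 1 (edgeR). Grm2 therefore did not pass the threshold of 0.05 in any comparison. The spread in this test rests on 1 residual degree of freedom from the 4 h pair. That pair differed widely in some genes, with Ttr at 16.3 normalized CPM in the first library and 3971 in the second. The source of this spread was not tested. DESeq2 placed Grm2 past the threshold at 4 h against control (adjusted p = 0.0138) and at 8 h against 4 h (adjusted p = 9.26e-06). Over 6 alternative settings the adjusted p ran from 3.01e-07 to 0.327 for the former and from 1.60e-16 to 0.542 for the latter. The lowest of each came from the edgeR fit without a filter on low counts, in which the prior degrees of freedom were estimated as infinite, so that gene-specific spread no longer entered the test.

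**Figure D1:**
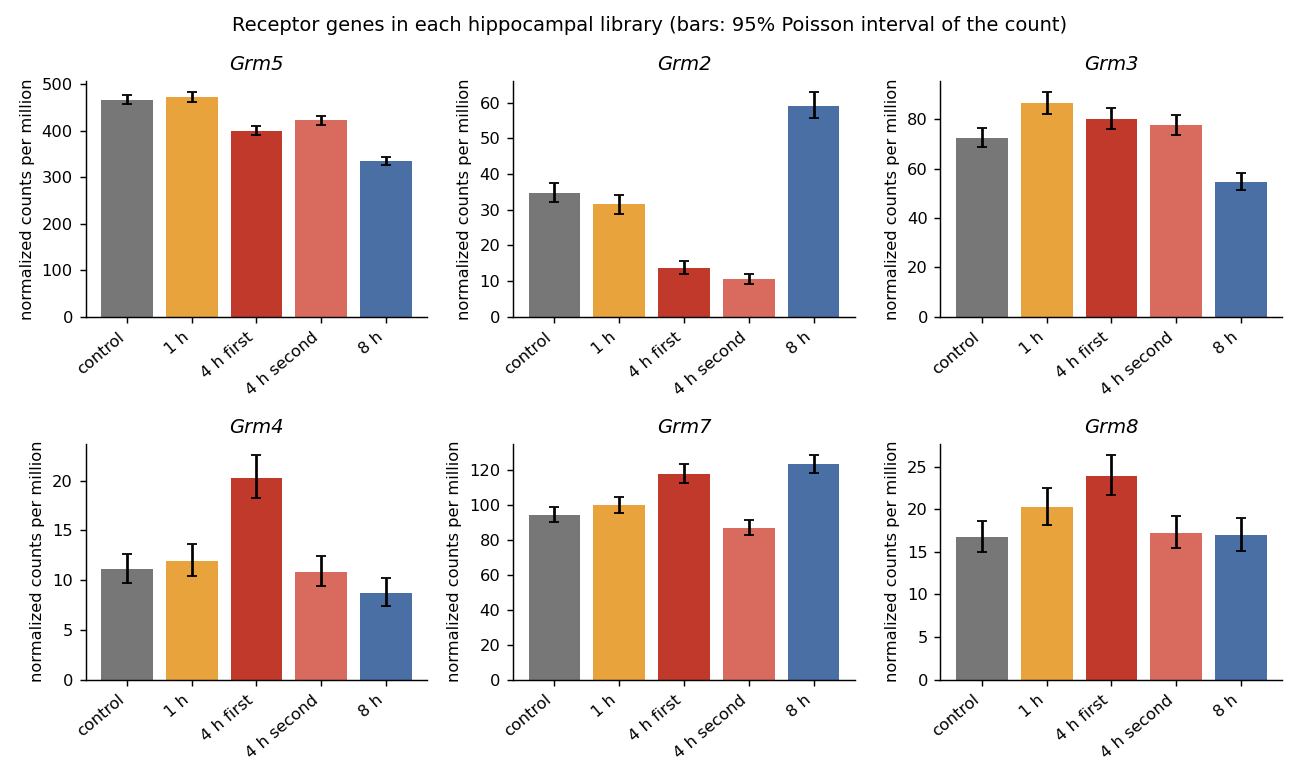
Normalized CPM of the 6 receptor genes in each of the 5 libraries, 1 panel per gene, with exact Poisson 95% intervals of the counts as bars. Grm2 was 13.7 and 10.5 in the 4 h libraries against 34.8 in the control and 59.2 at 8 h, and Grm4 stood apart in the first 4 h library.

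Grm3, the other group II gene, had 72.7 normalized CPM in the control library, 86.5 after 1 h, 80.2 and 77.8 in the 4 h pair and 54.6 after 8 h. The 4 h pair was close, differing by 0.04 on the log2 scale, and the 8 h library was the lowest of the 5. Against control its log2 fold change was 0.12 ± 0.17 for 4 h and -0.41 ± 0.19 for 8 h, and neither passed (adjusted p = 0.803 and 1.00, edgeR). At 8 h against 4 h Grm3 was lower by a log2 fold change of -0.53 ± 0.17, with an adjusted p of 0.530 by edgeR.

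The ratio of these Gi/o-coupled receptors within a library does not depend on the normalization. Grm2 counts per Grm3 count were 0.479 (0.436 to 0.524, exact binomial 95% interval) in the control and 0.364 (0.329 to 0.401) at 1 h. The ratio was 0.170 (0.147 to 0.196) and 0.135 (0.116 to 0.157) in the 4 h libraries and 1.08 (0.990 to 1.18) at 8 h. The ratio was lowest in the 4 h libraries and highest at 8 h. These intervals too cover counting error only, and the difference between conditions in this ratio was not tested. Per kilobase of exon the ratio went from 0.0843 in the second 4 h library to 0.674 at 8 h, so Grm3 was the higher of the pair throughout.

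**Figure D2:**
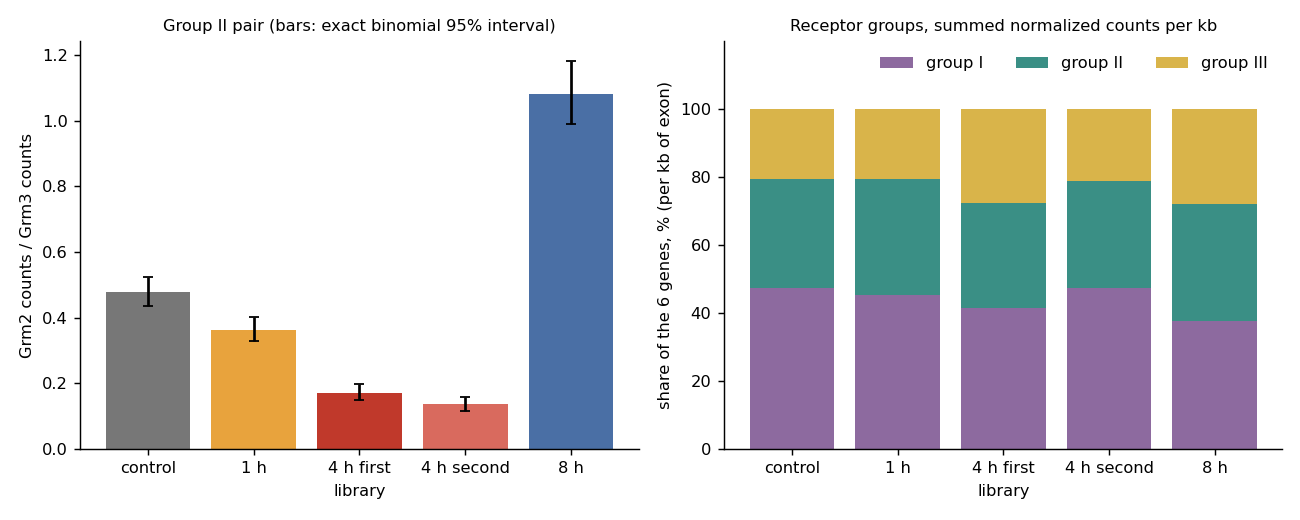
Left, Grm2 counts divided by Grm3 counts in each library with exact binomial 95% intervals, 0.135 to 0.170 at 4 h and 1.08 at 8 h. Right, the share of each receptor group in the summed normalized counts per kilobase of exon of the 6 genes, in percent.

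Grm5, the group I gene, had the highest level per kilobase of exon of the 6 in every library. It had 466.2 normalized CPM in the control library, 472.3 after 1 h, 399.6 and 421.9 in the 4 h pair and 334.2 after 8 h. The 4 h pair and the 8 h library lay below the control and the 1 h library, and the 8 h level was 71.7% of the control (69.4% to 74.1%, exact binomial interval). Against control its log2 fold change was -0.18 ± 0.16 for 4 h and -0.48 ± 0.18 for 8 h, with adjusted p of 0.682 and 1.00 by edgeR.

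The group III genes showed no common course. Grm7, a presynaptic receptor of low glutamate affinity, showed 94.4 normalized CPM in the control library, 99.9 after 1 h, 118.01 and 87.1 in the 4 h pair and 123.4 after 8 h. The 4 h libraries lay on either side of the control, and the fitted difference against control was 0.12 ± 0.23 for 4 h and 0.39 ± 0.26 for 8 h on the log2 scale (adjusted p = 0.866 and 1.00, edgeR). Without the first 4 h library the value at 4 h was -0.12, and without the second it was 0.32. Grm8 ranged from 16.8 in the control to 23.9 in the first 4 h library, with 17.2 in the second, and its log2 fold changes against control lay between 0.01 and 0.29. For Grm8 the value at 4 h was 0.04 without the first 4 h library and 0.51 without the second.

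Grm4 had 11.1 normalized CPM in the control, 11.9 at 1 h, 20.3 and 10.8 in the first and second 4 h library and 8.73 at 8 h. Only the first 4 h library was high, at 1.87 times the second (1.57 to 2.24, exact binomial 95% interval). The fitted log2 fold change of 0.48 ± 0.43 at 4 h (adjusted p = 0.689, edgeR) thus averaged unlike libraries, and it was -0.03 without the first and 0.86 without the second.

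Markers of tissue that borders the hippocampus also differed between the 4 h libraries. All 4 of 4 thalamus markers were detected, with a summed level of 65.9, 75.6, 319.0, 129.0 and 57.7 normalized CPM for the control, 1 h, first 4 h, second 4 h and 8 h libraries. Prkcd was the most abundant of them, at 27.0 in the control and 199.3 and 79.0 in the first and second 4 h library. The other thalamus markers were also highest in the first 4 h library. In the second, Tcf7l2 (4.18) was above the control (2.66), Slc17a6 (42.6) was near its 1 h level (41.4) and Lef1 (3.23) was below the control (3.52). The 6 of 6 choroid plexus markers, led by Ttr, summed to 4009, 1698, 30.1, 4284 and 3102 in the same order, and in the first 4 h library Folr1 was at 0.416 and Kcnj13 at 0.356. The 5 of 5 neocortex markers summed to 217.2, 224.5, 234.0, 164.6 and 132.3 in that order. Rasgrf2, the most abundant, was at 122.9 in the control, 57.3 and 71.2 in the 4 h pair and 58.7 after 8 h. Rorb was at 27.0 in the control and 54.7 and 25.9 in the 4 h pair, Fezf2 at 26.5, 73.1 and 39.6, and Foxp2 at 2.51, 8.26 and 3.33. No marker of these lists had 0 counts in a library. Grm2 (1.30 times), Grm4 (1.87), Grm7 (1.35) and Grm8 (1.39) were higher in the first 4 h library than in the second, Grm3 was at 1.03 times and Grm5 at 0.947 times. The part of these tissues in those values was not tested.

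**Figure D3:**
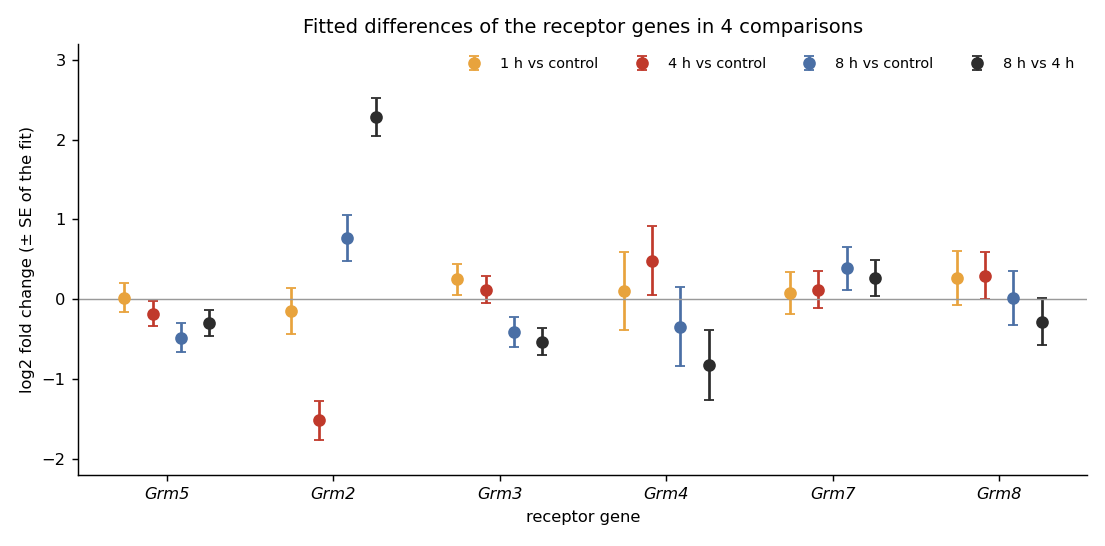
Fitted log2 fold changes of the 6 receptor genes with the standard error of the fit, for 1 h, 4 h and 8 h against control and for 8 h against 4 h. Grm2 had the values farthest from 0, at -1.52 for 4 h against control and 2.28 for 8 h against 4 h, which did not pass the adjusted threshold in this edgeR fit but passed it with DESeq2.

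Per kilobase of exon, the order in the control was Grm5 at 45.5 normalized CPM, Grm3 at 23.8, Grm7 at 16.0, Grm2 at 7.10, Grm4 at 1.86 and Grm8 at 1.70. At 8 h Grm7 (20.96) stood above Grm3 (17.9) and Grm2 reached 12.1. The order of Grm4 and Grm8 varied between libraries, and in the first 4 h library Grm4 (3.40) stood above Grm2 (2.79). On this scale group I made up 47.4% of the 6 genes in the control and 37.6% at 8 h, group II 32.2% and 34.6%, and group III 20.4% and 27.8%. The first and second 4 h library differed on this scale, with group I at 41.5% and 47.2%, group II at 31.0% and 31.7% and group III at 27.5% and 21.05%, so the group III share at 8 h was close to that of 1 of the 4 h libraries. Grm2 alone made up 2.47% of the 6 genes in the second 4 h library and 13.9% at 8 h. These are shares of the summed normalized CPM per kilobase, and in bulk tissue fewer cells of a type and less RNA per cell cannot be told apart.

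All 6 genes passed the filter on low counts, and 0 of 6 passed the adjusted threshold of 0.05 by edgeR in any of the 4 comparisons. Among the 19768 genes tested, edgeR called 0 (0%) for 1 h, 1 (0.00506%) for 4 h and 0 (0%) for 8 h against control, and 0 (0%) at 8 h against 4 h. The single gene was ETV3L, named here after its value was seen, with a log2 fold change of 8.41. Before adjustment, p was under 0.05 for 478 genes (2.42%) at 1 h, 2291 (11.6%) at 4 h, 892 (4.51%) at 8 h and 1726 (8.73%) at 8 h against 4 h. By that unadjusted rule the receptor genes numbered 0 at 1 h, 1 at 4 h (Grm2), 2 at 8 h (Grm2, Grm5) and 2 at 8 h against 4 h (Grm2, Grm3). DESeq2 called 49, 233, 32 and 132 genes in the same order, and limma-voom called 0 in each. The comparisons with the control share 1 library, so they are not independent of each other.

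The stimulation itself was visible in the immediate early genes. Fos, an AP-1 subunit, had 10.8 normalized CPM in the control library, 999.2 after 1 h, 519.3 and 70.4 in the 4 h pair and 17.2 after 8 h. Arc, which acts in AMPA receptor endocytosis, had 147.5, 2022, 2593, 928.0 and 151.6 in the same order. All 8 of 8 control genes of stimulation (also Fosb, Egr1, Junb, Npas4, Nr4a1 and Bdnf) had an unadjusted p under 0.05 at 1 h with a median log2 fold change of 4.28, against a median of -0.01 over all genes tested, and 0 of 8 passed after Benjamini-Hochberg adjustment in edgeR. At 4 h against control, 4 of 8 had an unadjusted p under 0.05. All 8 were higher in the first 4 h library than in the second, where Npas4 (4.92 against 3.92 in the control), Egr1 (30.9 against 29.1) and Nr4a1 (34.6 against 33.8) were near the control level.

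Genes that act with group I receptors showed a median log2 fold change of -0.04 at 4 h over 17 tested, beside 0.01 for all genes, and 0 passed in either direction. Plcb4, a phospholipase C, had 39.8 normalized CPM in the control and 114.6 and 62.8 in the 4 h libraries. Gna11, a Gq-class alpha subunit, was lower, at 102.2 in the control and 71.0 and 72.5 at 4 h. Dagla, which makes the endocannabinoid 2-AG, was at 97.2, 72.0 and 82.7, and at 127.9 at 8 h. At 1 h and 8 h against control the medians were 0.10 and -0.06.

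For the Gi/o list, 0 of 16 passed in either direction and the median at 4 h was -0.12, with -0.04 at 1 h and -0.24 at 8 h. The GIRK channel subunits Kcnj6 and Kcnj9 lay in opposite directions. Kcnj6 had 33.1 normalized CPM in the control and 64.2 and 48.9 at 4 h, whereas Kcnj9 had 90.9 in the control and 66.4 and 43.3. The adenylyl cyclases Adcy6 and Adcy9 had log2 fold changes of -0.38 each at 4 h.

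Receptor partners, among them scaffolds, kinases and arrestins, had a median of -0.09 at 4 h over 20 tested, with 0.00 at 1 h and -0.09 at 8 h, and again 0 passed. Homer1, whose short form uncouples group I receptors from their scaffold, had 217.2 normalized CPM in the control library, 1333 after 1 h, 3764 and 1350 in the 4 h pair and 306.8 after 8 h. Its log2 fold change at 4 h was 3.56 ± 0.68, with an adjusted p of 0.259 by edgeR. Grasp, a scaffold of group I receptors, had 24.3 in the control library, 74.0 after 1 h, 76.3 and 95.8 in the 4 h pair and 53.1 after 8 h. Grk5, a receptor kinase, had 10.3 in the control and 24.8 and 20.1 at 4 h, and the scaffold gene Shank1 had 74.0, 114.4 and 95.5.

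**Figure D4:**
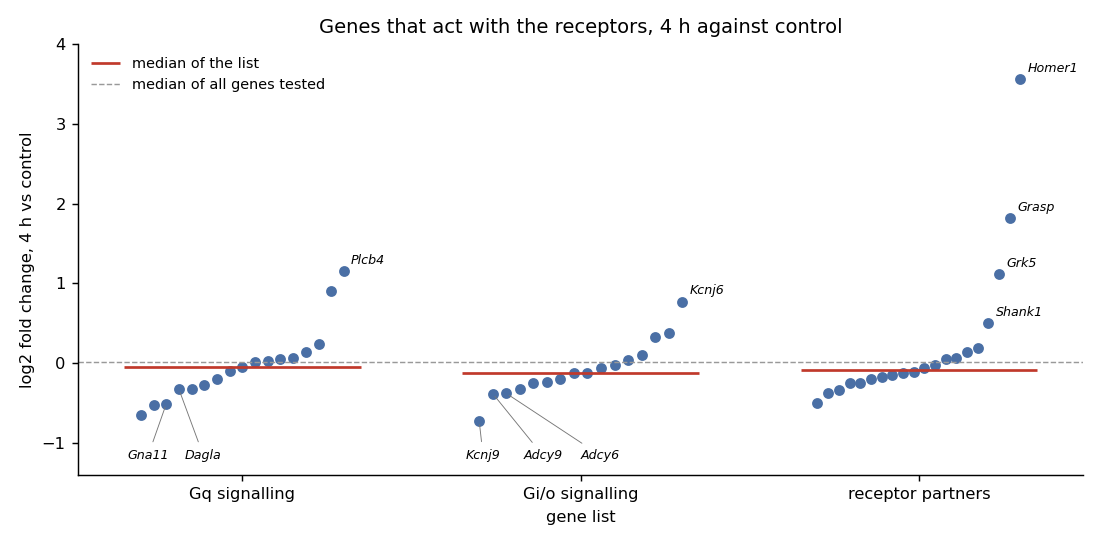
Log2 fold change at 4 h against control for each tested gene of the Gq list (17), the Gi/o list (16) and the receptor partners (20), in ascending order, with the median of each list and of all genes tested. Labels mark genes described in the text, chosen among those with at least 200 counts in a library and led by Homer1 at 3.56.

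The gene whose profile over the 5 libraries was most like that of Grm2 was C1ql2, a secreted synaptic organiser of mossy fibres. It had 29.3 normalized CPM in the control library, 27.9 after 1 h, 11.05 and 11.7 in the 4 h pair and 58.1 after 8 h, a root mean square difference from Grm2 of 0.16 log2 units among 9975 genes compared. Dclk3 (0.19) and Dpf3 (0.28) followed. For Grm4 the nearest genes were Rims3, a presynaptic active zone protein, at 0.04, Car10 at 0.06 and St18 at 0.06, each highest in the first 4 h library.

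C1ql2 is also on the list of dentate granule cell markers, of which 4 of 4 were detected and 0 had a count of 0. The summed level of the list was 263.7, 261.4, 276.2, 217.5 and 264.4 normalized CPM for the control, 1 h, first 4 h, second 4 h and 8 h libraries. Its genes went different ways at 4 h. Dsp was at 72.2 in the control and 4.34 and 13.6 at 4 h, whereas Prox1, the most abundant of the 4 on average, was at 60.0 in the control and 171.6 and 119.7 at 4 h. Calb1 had 102.2 in the control, 89.2 and 72.5 at 4 h and 60.7 at 8 h. The part of granule cell number in the Grm2 values was not tested.

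**Figure D5:**
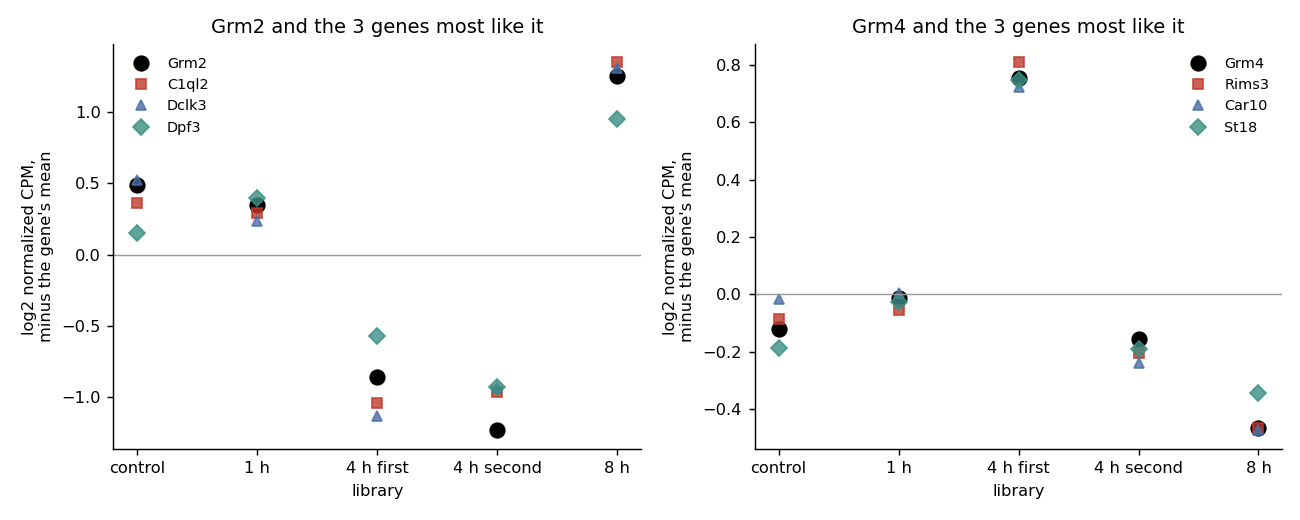
Log2 normalized CPM minus the mean of each gene over the 5 libraries, for Grm2 (left) and Grm4 (right) with the 3 genes of smallest root mean square difference. C1ql2 lay 0.16 log2 units from Grm2 and Rims3 0.04 from Grm4.

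Astrocyte markers, of which 10 of 10 were detected with Slc1a2 the most abundant, summed to 4576 normalized CPM in the control library, 4790 after 1 h, 5627 and 5244 in the 4 h pair and 4928 after 8 h. Among them Gja1 was at 194.5 in the control and 98.6 at 8 h, and Gfap at 221.1 and 587.4. Grm3 was also lowest at 8 h, and the part of astrocytes in that value was not tested. All markers of the other lists were detected, among them the 8 of interneurons, led by Gad1. Excitatory neuron markers (5, led by Camk2a) summed to between 1969 and 2450, and CA pyramidal cell markers (6, led by Fibcd1) to between 264.1 and 378.2. The first 4 h library was the lowest for both excitatory lists. Interneuron markers summed to 892.1 and 765.8 in the 4 h pair against 547.8 for the control library, 608.5 after 1 h and 612.8 after 8 h. Both 4 h sums were thus above the 3 others, but the members differed. Gad1 was at 256.4 in the control and 515.3 and 379.5 in the 4 h pair. Gad2 and Npy were also above the control in both. Slc32a1 (28.2 against 31.6 in the control) and Lhx6 (8.37 against 10.2) were lower in the first 4 h library. In the second, Pvalb (22.0 against 23.0), Vip (17.1 against 17.2) and Sst (80.9 against 80.8) were near the control. The part of interneurons in the receptor values was not tested. Microglia (8, led by Csf1r) summed to between 203.7 and 227.1, oligodendrocytes (6, led by Mbp) to between 3303 and 5072 and their precursors (4, led by Pdgfra) to between 128.0 and 172.9. Endothelium (6, led by Flt1) ranged from 97.2 to 153.8. Oligodendrocyte and precursor sums were highest in the second 4 h library, at 151.8% and 124.3% of the control. The endothelium sum was highest in the first, at 150.1% of the control against 100.5% in the second. The part of these cells in the receptor values was not tested.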

How the data were processed

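Per the submitters' notes and the study's methods, the authors made stranded total RNA libraries, aligned paired reads with STAR 2.5.1b to GRCm38.p4 and deposited HTSeq counts of reads per gene, which are not normalized. The sources used here do not name the annotation release or the strand setting. Reads on no gene made up 24.7% to 33.1% of each file and were left out. Counts were analysed with edgeR 4.0.16 in R 4.3.3 (filterByExpr, TMM, quasi-likelihood test, 4 groups, all 5 libraries, 1 residual degree of freedom, prior count 2 for fold changes, Benjamini-Hochberg over 19768 genes). The prior degrees of freedom were 4.42. Alternatives were DESeq2 1.42.0, limma 3.58.1, other scaling and other filters. The procedure was tested on simulated data: fold changes and unadjusted p-values came out as simulated, but with gene-specific spread the adjusted calls held more false calls than the threshold allows. In those simulated data the prior degrees of freedom were estimated as infinite, unlike in the reported fit, so the excess is not a measure of that fit. Of the gene identifiers, 55144 of 55385 were found in GENCODE M21, which gave exon lengths. Named genes were the 6 receptors, the stimulation genes, up to 4 genes a list with the largest fold change at 4 h and at least 200 counts in a library, and, for receptors spanning at least 1 log2 unit, the 3 nearest genes with a mean of at least 10 normalized CPM. A gene so chosen is not reported here. Members and lists were chosen with earlier results of these data known.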

Additional observations from a re-analysis of the deposited data

How the results depend on the processing

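No paired analysis was possible because only the 4 h group has more than 1 library. The number of called genes depended on the setting. With library size alone it was 57, 237, 22 and 120 (each time against control in order, then 8 h against 4 h), without a filter 285, 1300, 279 and 957, and with DESeq2 49, 233, 32 and 132. With at least 10 counts in every library it was 1 for 1 h and 0 for 4 h, and median-of-ratios factors and limma-voom also gave 0 for 4 h. The prior degrees of freedom were estimated at 4.42 in the reported fit, 3.93 with median-of-ratios factors, 4.56 with at least 10 counts, 11.2 with library size alone and infinite without a filter. The edgeR settings with the most calls were those with the highest estimates, and their calls are not counted as separate support. Called receptor genes were 1 (Grm2) instead of 0 at 4 h against control and at 8 h against 4 h with library size alone, without a filter and with DESeq2. Library size alone moved the median of all genes to -0.11 at 4 h against control and to 0.12 at 8 h against 4 h. Signs turned, with values near 0, with library size alone for Grm3 (-0.00436) and Grm7 (-0.0125) in the 4 h comparison and Grm5 (-0.0546) in the 1 h comparison with the control, and without a filter for Grm8 (-0.000261) in the 8 h comparison. The cause was not tested. Without either 4 h library, Grm2 was between -1.71 and -1.34 at 4 h against control and between 2.11 and 2.48 at 8 h against 4 h, and at 4 h against control Grm4 was between -0.03 and 0.86 and Grm7 between -0.12 and 0.32. The negative values of Grm4 and Grm7 came without the first 4 h library, so their signs turned there too. For 8 h against 4 h, Grm4 was then at -0.309, Grm7 at 0.502 and Grm8 at -0.025. Without the second 4 h library they were at -1.208, 0.064 and -0.496. These are values with no test, since no residual degree of freedom was left, and calls across genes could not be recounted without the first 4 h library. Control, 1 h and 8 h have 1 library each, so spread there is assumed to equal that of the 4 h pair.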
